A study of Homo sapiens with 6 samples.

Results

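The glycolytic enzymes and the other genes of the hypoxia response were followed in WM-266.4 melanoma cells after knock-down of PIR, the gene of the iron-binding nuclear protein pirin. The list held 38 genes by symbol: 24 of glycolysis and of pyruvate and lactate handling, 11 other hypoxia targets, and 3 subunits of the hypoxia-inducible factors (HIF). Each gene was read from the brightest probe set annotated with that symbol alone, which 35 of the 38 had. Of these, 33 were measured, meaning that the mean signal of at least 1 group was above 70.2, the median of all values, out of 13071 measured genes on the array. SLC16A1, SLC16A3 and CA9 had no probe set of their own in the annotation used and were not analysed here.

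WM-266.4 is a single line from a metastatic melanoma. In the siPIR group the cells were transfected with a pool of 4 siRNA duplexes against PIR, and in the siCTR group with a pool of 4 non-targeting duplexes. The NO group received Oligofectamine, the lipid reagent, and no oligonucleotide. Seeding took place 24 h before transfection in serum-free medium with 200 pmol of siRNA, and the cells were collected after a further 72 h. Equal amounts of RNA of 3 extractions were mixed into 1 pool for each group, and the pool's labelled target was read on 2 HG-U133 Plus 2 arrays. The 2 arrays are repeat hybridisations, so n is 1 pool per group. Differences between pools have no replicate check, and so few arrays limit the precision.

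Glycolysis turns glucose into pyruvate, and tumour cells often run it at a high rate and pass the pyruvate on to lactate. A HIF dimer joins an oxygen-regulated alpha subunit, HIF1A or EPAS1, to the stable partner ARNT. In the presence of oxygen the EGLN hydroxylases mark the alpha subunit for degradation. When oxygen is low the dimer binds DNA at a short core motif and raises many glycolytic genes together with genes of mitochondrial turnover, collagen modification and acid handling. Several steps of the pathway have isoforms encoded by separate genes.

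The sequences shown are the 250 bases before the start site of the enolase genes, the isoform pair of glycolysis whose differences lay farthest apart, and of the 3 other genes above the 1.5-fold mark against both controls for which the table held a sequence. They were taken from RefSeq on build GRCh38.p14 and are written 5′ to 3′ in the direction of the gene. The capitals mark the HIF core motif, searched as ACGTG or GCGTG on both strands (CACGT or CACGC on the strand shown). The first of these letter strings also lies within the E-box letters CACGTG. The regions are chr12:6914330-6914579 on the plus strand for ENO2 and chr1:8878687-8878936 on the minus strand for ENO1. They are chr10:73096867-73097116 on the minus strand for P4HA1, chr2:46297157-46297406 on the plus strand for EPAS1, and chr21:44299803-44300052 on the plus strand for PFKL.
ENO2: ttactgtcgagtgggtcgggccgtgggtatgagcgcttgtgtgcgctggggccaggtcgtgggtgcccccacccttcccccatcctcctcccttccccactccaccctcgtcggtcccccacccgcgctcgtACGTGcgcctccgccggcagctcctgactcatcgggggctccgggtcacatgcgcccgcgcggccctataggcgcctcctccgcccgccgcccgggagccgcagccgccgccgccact
ENO1: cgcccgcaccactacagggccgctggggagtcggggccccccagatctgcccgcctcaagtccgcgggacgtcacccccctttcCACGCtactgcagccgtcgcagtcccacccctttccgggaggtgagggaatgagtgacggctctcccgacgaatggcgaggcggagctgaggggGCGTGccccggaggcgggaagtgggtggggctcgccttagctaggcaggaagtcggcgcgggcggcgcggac
P4HA1: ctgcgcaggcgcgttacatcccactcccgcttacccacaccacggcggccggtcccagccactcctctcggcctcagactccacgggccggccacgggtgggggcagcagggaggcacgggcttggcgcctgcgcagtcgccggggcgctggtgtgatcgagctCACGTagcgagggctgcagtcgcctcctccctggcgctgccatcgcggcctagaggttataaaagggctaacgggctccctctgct
EPAS1: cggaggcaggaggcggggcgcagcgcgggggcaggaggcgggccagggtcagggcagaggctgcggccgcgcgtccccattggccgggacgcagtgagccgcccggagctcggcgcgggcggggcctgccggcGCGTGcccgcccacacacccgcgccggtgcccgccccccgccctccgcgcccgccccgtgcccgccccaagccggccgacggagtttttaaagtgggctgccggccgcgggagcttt
PFKL: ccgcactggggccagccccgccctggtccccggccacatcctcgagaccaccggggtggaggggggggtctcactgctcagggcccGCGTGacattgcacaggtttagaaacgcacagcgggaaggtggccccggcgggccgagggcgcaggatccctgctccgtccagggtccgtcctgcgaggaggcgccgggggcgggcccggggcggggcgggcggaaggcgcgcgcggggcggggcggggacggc
The match began 118 bases before the start site in ENO2, 86 in P4HA1, 117 in EPAS1 and 164 in PFKL, and ENO1 held 2 matches, 166 and 72 bases before it. A match was found in 36 of the 61 windows of the listed genes (59.0%), against 15172 of all 35116 windows of this length (43.2%). Counted by gene, 28 of the 34 listed genes in the table had a match in some window (82.4%), against 47.4% of all genes. These shares are not alike, as the 34 listed genes had 61 windows and all 27305 genes had 35116. Of the 22114 genes with 1 window, 42.2% had a match. HK1 and PFKM had 7 windows each, with 1 match each. By group, it was found in 27 of 48 windows of the glycolysis genes and in 7 of 9 windows of the other hypoxia targets. Both enolase windows therefore hold the letters, although the differences of these genes lay far apart. A match is a string of letters and was not tested as a binding site.

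The knock-down was seen on the arrays: PIR had signals of 392 and 382 in the siPIR pool, against 13544 and 13180 in the siCTR pool and 13990 and 14153 in the NO pool, a log2 difference of -5.09 against siCTR and -5.17 against NO. Array medians ran from 64.2 to 74.8. Of 10 melanocyte markers, 9 had a probe set and all 9 were measured. Their summed signal was 112646 to 114871 in siPIR, 105618 to 110818 in siCTR and 106927 to 112918 in NO. The summed signal of 6 proliferation genes was lower after the knock-down, at 13343 to 14470 in siPIR, against 32519 to 33989 in siCTR and 29036 to 30894 in NO. Of 6 fibroblast markers 3 were measured. The summed signal of all 6 was 22951 to 23946 in siPIR, 14614 to 15806 in siCTR and 12639 to 12722 in NO. It was almost all COL1A2, which differed by 0.64 against siCTR and 0.91 against NO. COL1A1 differed by -0.09 and 0.71, and LUM by -0.44 and -0.61. Of the marker lists of other cell types, 1 of 5 keratinocyte genes, 1 of 4 leukocyte genes with a probe set and 2 of 4 endothelial genes were measured. The part of these shifts in the results was not tested. In RNA of whole cultures, fewer cells of a type and less RNA per cell cannot be told apart.

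Against both controls, ENO2 rose and BNIP3L fell, and no other listed gene passed the call. The call asked for pool means at least 2-fold apart (1 on the scale of log2(signal + 5.4)) and for arrays of the pools that did not overlap. It weighs size and repeat hybridisations and is no test of the treatments. The count of 1 of 33 higher and 1 of 33 lower stands beside 1.52% higher and 3.22% lower of all 13071 measured genes, and 0.919% and 3.41% of the 8272 bright ones, those with a mean over 458.4, the upper quartile of all values, in some pool. These shares of the list are near the background. Against siCTR alone the counts were 1 higher and 1 lower (3.75% and 4.26% of all measured genes). Against NO they were 2 higher, with EPAS1 added, and 1 lower (3.67% and 5.48%).

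Smaller differences leaned upwards. All siPIR arrays lay above all arrays of both controls for 21 of the 33 genes and below them for 5, where 28.4% and 23.2% of all measured genes did so. Of the 33 genes, 32 were bright, and among bright genes the background was 34.0% and 29.1%. Against siCTR alone the arrays were apart for 23 genes upwards and 5 downwards (36.6% and 29.5% of all measured genes), and against NO alone for 25 and 6 (37.7% and 32.7%). With a mark of 1.5-fold in place of 2-fold, 5 genes were higher than both controls (ENO2, PFKL, NDRG1, P4HA1 and EPAS1) and 2 were lower (PFKFB2 and BNIP3L), beside 6.37% and 7.55% of all measured genes and 5.6% and 8.32% of the bright ones. At that mark 7 genes were higher and 3 lower than siCTR (10.7% and 10.1% of all measured genes), and 12 higher and 2 lower than NO (11.9% and 12.9%). The median log2 difference of the 33 genes was 0.25 against siCTR and 0.38 against NO, beside 0.05 and 0.03 over all measured genes.

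**Figure D1:**
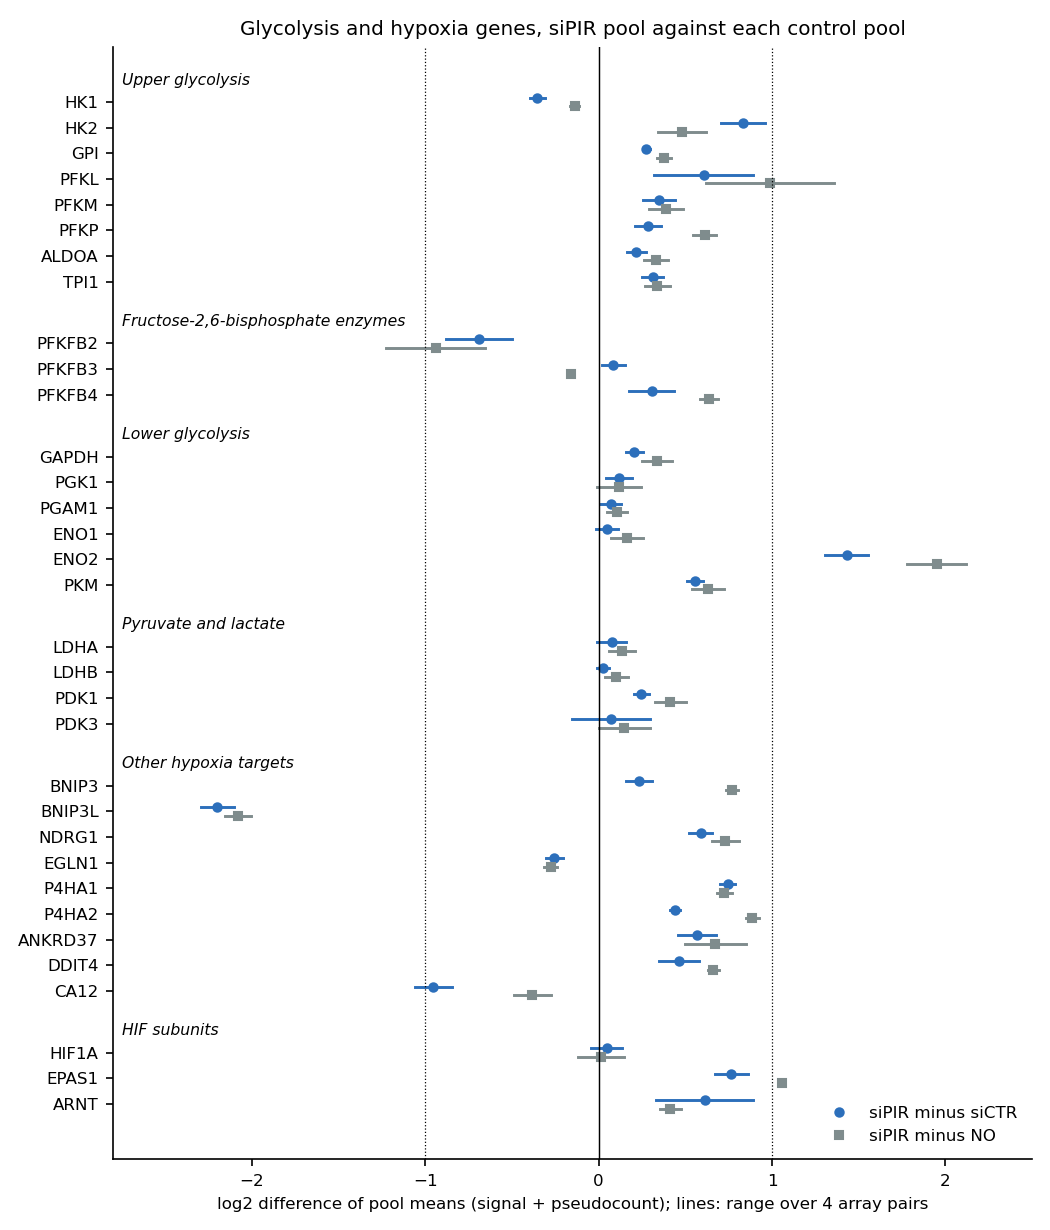
Log2 difference of pool means (log2 of signal + 5.4) for the 33 measured genes, in rows grouped by role, as siPIR minus siCTR (blue circles) and siPIR minus NO (grey squares); lines span the 4 array pairs and dotted lines mark 2-fold. Most points lie between 0 and 1, with ENO2 at 1.43 and 1.95 and BNIP3L at -2.20 and -2.08.

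In the upper part of glycolysis, from glucose to the triose phosphates, 7 of the 8 measured enzymes had all siPIR arrays above all control arrays. HK1 had them below. All 8 were bright, and the shares of bright genes were 34.0% above and 29.1% below. No enzyme of the upper part was called. The hexokinases, which phosphorylate glucose and trap it in the cell, differed in opposite directions. HK2, the inducible form, had signals of 3281 and 3265 in siPIR, against 1685 and 1999 in siCTR and 2136 and 2574 in NO. Relative to siCTR its log2 difference was 0.83 (ranging over the 4 array pairs from 0.71 to 0.96) and 0.48 against NO (0.34 to 0.62). HK1, the broadly expressed form, had signals of 5473 and 5441 in siPIR, against 7162 and 6795 in siCTR and 6093 and 5910 in NO, a difference of -0.35 against siCTR and -0.14 against NO. The siPIR arrays were thus the highest of the 6 for HK2 and the lowest of the 6 for HK1, with no overlap in either gene.

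The phosphofructokinases catalyse the committed step of glycolysis. PFKL, the liver form, had signals of 2212 and 1652 in siPIR, against 1188 and 1321 in siCTR and 858 and 1075 in NO. The difference was 0.61 against siCTR (0.32 to 0.89) and 0.99 against NO (0.62 to 1.36), with no overlap but with a wide gap between the siPIR arrays. Without siPIR replicate 1 the difference against siCTR was 0.40, under the 1.5-fold mark, and without siPIR replicate 2 that against NO was 1.20, past the 2-fold mark. Its probe set is of a type that can share probes with other transcripts, and the gene's other probe set gave 0.58 against each control. PFKM, the muscle form, differed by 0.35 and 0.39 against siCTR and NO, and PFKP, the platelet form, by 0.29 and 0.61. A second, dim probe set of PFKP differed by 1.65 and 0.25, at signals of 45 and 105 in siPIR, 12 and 27 in siCTR and 27 and 115 in NO.

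The isomerase GPI (0.28 against siCTR and 0.38 against NO), the aldolase ALDOA (0.22 and 0.33) and the triose phosphate isomerase TPI1 (0.31 and 0.34) had all siPIR arrays above the control arrays. After quantile normalisation ALDOA differed by 0.13 against siCTR and 0.23 against NO. ALDOC, the brain-type aldolase, was not measured, with signals of 49 and 30 in siPIR, 7 and 87 in siCTR and 57 and 67 in NO.

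The PFKFB enzymes make and remove the phosphorylated fructose that activates phosphofructokinase, and the 3 isoforms did not move together. PFKFB4 had signals of 7819 and 8315 in siPIR, against 6141 and 6917 in siCTR and 5152 and 5219 in NO. Its difference was 0.31 against siCTR and 0.64 against NO. PFKFB3 had 3003 and 3045 in siPIR, against 2968 and 2745 in siCTR and 3377 and 3391 in NO, a difference of 0.08 against siCTR and -0.16 against NO. The siPIR arrays were the highest for PFKFB4 and lay between the controls for PFKFB3.

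PFKFB2, the heart-type isoform, was the single listed gene that was measured but not bright. It had signals of 95 and 109 in siPIR, against 157 and 180 in siCTR and 175 and 230 in NO. The difference was -0.69 against siCTR (-0.88 to -0.50) and -0.94 against NO (-1.23 to -0.65), with the siPIR arrays lowest and no overlap. Against NO it passed 2-fold when 1 array was left out, at -1.03 without siPIR replicate 2 and -1.13 without NO replicate 1. The gene's other measured probe set differed by 0.26 against siCTR and by -2.07 against NO, at signals of 13.6 and 13.0 in siPIR, 10.9 and 9.5 in siCTR and 81.3 and 65.6 in NO. With the mean over all 4 of its probe sets the difference turned to 0.59 against siCTR and was -0.62 against NO, and the 2 probe sets that were not measured gave 1.28 and 1.52 against siCTR.

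In the lower part of glycolysis, ENO2 stood apart from the 5 other enzymes. ENO2 encodes the gamma or neuronal enolase, which makes phosphoenolpyruvate. Its signals were 5114 and 5440 in siPIR, against 1846 and 2063 in siCTR and 1484 and 1246 in NO. The siPIR arrays were far above all control arrays, and those of siCTR were above those of NO. The log2 difference was 1.43 against siCTR (1.31 to 1.56) and 1.95 against NO (1.78 to 2.12), or 2.70-fold and 3.87-fold. Against siCTR it ranked 227 of 13071 genes, counted from the highest difference. ENO1, the ubiquitous enolase of the same step, had signals of 31822 and 29578 in siPIR, against 29422 and 29862 in siCTR and 26693 and 28096 in NO. It differed by 0.05 against siCTR, with overlapping arrays, and by 0.16 against NO. ENO2 has 1 probe set, so no second reading of it was available on these arrays.

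PKM, the pyruvate kinase of most tumour cells, had signals of 28296 and 26705 in siPIR, against 18625 and 18764 in siCTR and 17136 and 18371 in NO. The difference was 0.56 against siCTR (0.51 to 0.60) and 0.63 against NO (0.54 to 0.72), with no overlap. GAPDH, which oxidises the triose phosphate, differed by 0.21 against siCTR and 0.34 against NO. The array's 3 control probe sets for GAPDH, placed at its 5′ end, middle and 3′ end, gave 0.21, 0.19 and 0.17 against siCTR and 0.26, 0.21 and 0.17 against NO. PGK1, an ATP-forming kinase, differed by 0.12 against each control, and the mutase PGAM1 by 0.07 and 0.11. After quantile normalisation these shrank to 0.08 and 0.18 for GAPDH, 0.07 and 0.06 for PGK1, and 0.006 and 0.024 for PGAM1. ENO2 therefore rose while the other enzymes of the lower part differed by at most 0.56 against siCTR and 0.63 against NO. Signals of the most abundant enzymes were near the top of the scale, where the highest value on any array was 61100, and whether this compresses their differences was not tested.

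At the branch from pyruvate to lactate no gene was called. LDHA and LDHB, the subunits of lactate dehydrogenase, differed by 0.08 and 0.03 against siCTR, with overlapping arrays, and by 0.14 and 0.10 against NO. After quantile normalisation both were below 0 against siCTR, at -0.013 and -0.0031. The pyruvate dehydrogenase kinases switch off the entry of pyruvate into mitochondrial oxidation. PDK1 differed by 0.25 against siCTR and 0.41 against NO, with all siPIR arrays above the controls, and PDK3 by 0.07 and 0.15. LDHA, although a classical HIF target, thus had one of the smaller differences.

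**Figure D2:**
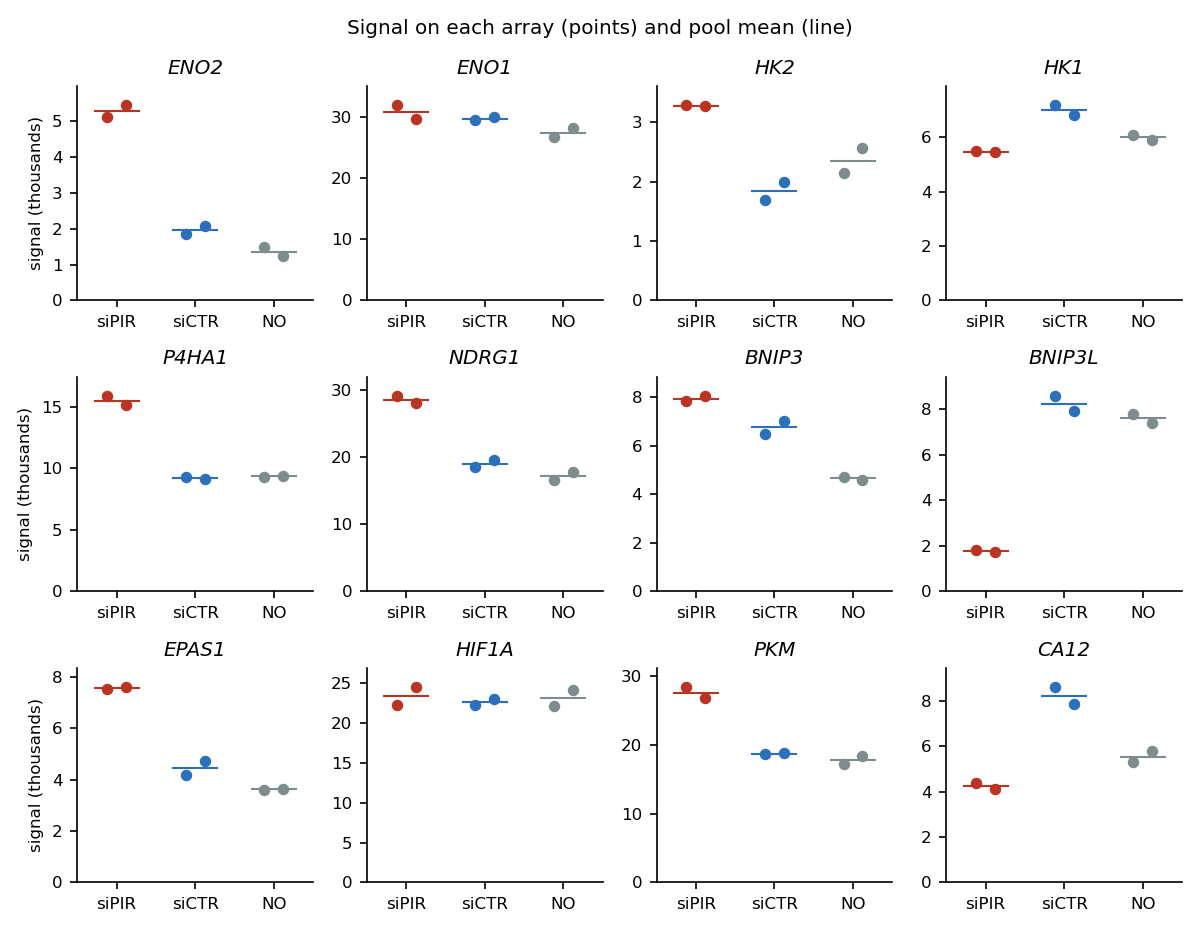
Signal (linear, axis in units of 1000) on each of the 2 arrays of the siPIR, siCTR and NO pools (points) with the pool mean (line), for 12 genes, each with its own axis from 0. ENO2, P4HA1, NDRG1, EPAS1 and PKM are highest in siPIR, BNIP3L is lowest there, and the siPIR and siCTR arrays of ENO1 and HIF1A overlap.

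Among the other hypoxia targets, 6 of the 9 measured genes had all siPIR arrays above all control arrays and 3 had them below, beside 34.0% and 29.1% of bright genes. The share below is near that background. BNIP3 and BNIP3L encode related receptors of the outer mitochondrial membrane that mark mitochondria for removal by autophagy. BNIP3L had signals of 1837 and 1740 in siPIR, against 8558 and 7923 in siCTR and 7784 and 7404 in NO. The siPIR arrays lay far below all the others. The difference was -2.20 against siCTR (-2.29 to -2.11) and -2.08 against NO (-2.16 to -2.01), which is 4.59-fold and 4.24-fold lower. Against siCTR it ranked 37 of 13071 genes, counted from the lowest difference. A second probe set of BNIP3L gave a far smaller difference, with 4126 and 3821 in siPIR, against 5167 and 5061 in siCTR and 5450 and 5310 in NO. It differed by -0.36 against siCTR and -0.44 against NO, in the same direction and without overlap, but not past the call. Which of the transcripts each probe set detects was not analysed here.

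BNIP3 had signals of 7872 and 8038 in siPIR, against 6493 and 7048 in siCTR and 4730 and 4600 in NO. Its difference was 0.23 against siCTR (0.16 to 0.31) and 0.77 against NO (0.73 to 0.81), and siCTR was 0.54 above NO. BNIP3 was thus highest and BNIP3L lowest in the siPIR pool, and the log2 difference of BNIP3L minus that of BNIP3 was -2.43 against siCTR and -2.85 against NO.

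The alpha subunits of collagen prolyl hydroxylase, which stabilise the collagen helix, were higher in siPIR. P4HA1 had signals of 15819 and 15115 in siPIR, against 9302 and 9158 in siCTR and 9285 and 9406 in NO. Its difference was 0.74 against siCTR (0.70 to 0.79) and 0.73 against NO (0.68 to 0.77), and the control pools were nearly equal. P4HA2 differed by 0.44 and 0.89, with siCTR 0.45 above NO. NDRG1, a stress-responsive gene induced in hypoxia, had 29017 and 28083 in siPIR, against 18466 and 19532 in siCTR and 16572 and 17831 in NO. It differed by 0.59 against siCTR (0.52 to 0.65) and 0.73 against NO (0.66 to 0.81), just past the 1.5-fold mark against siCTR. It fell short of that mark, at 0.56 without siPIR replicate 1 and 0.55 without siCTR replicate 1.

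ANKRD37, an ankyrin repeat protein known as a HIF target, differed by 0.57 and 0.67 against siCTR and NO. DDIT4, an inhibitor of mTOR signalling, differed by 0.46 and 0.66. Both had all siPIR arrays above the controls. EGLN1, the main HIF hydroxylase, differed by -0.25 and -0.28, with the siPIR arrays lowest. CA12, a carbonic anhydrase of the cell surface, had 4379 and 4110 in siPIR, against 8580 and 7866 in siCTR and 5309 and 5766 in NO. Its difference was -0.95 against siCTR (-1.06 to -0.84) and -0.38 against NO, and siCTR was 0.57 above NO. It passed 2-fold against siCTR, at -1.02, without siCTR replicate 2. EGLN3 was not measured, with 39 and 46 in siPIR, 59 and 49 in siCTR and 26 and 14 in NO.

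Of the HIF subunits, EPAS1 was called against NO. EPAS1 had signals of 7543 and 7586 in siPIR, against 4174 and 4735 in siCTR and 3611 and 3642 in NO. The difference was 0.77 against siCTR (0.67 to 0.86) and 1.06 against NO (1.05 to 1.07), 1.70-fold and 2.08-fold, with no overlap. Its second, dimmer probe set gave 1.17 and 1.15. HIF1A had 22239 and 24441 in siPIR, against 22222 and 22939 in siCTR and 22103 and 24164 in NO, a difference of 0.05 and 0.01 with overlapping arrays, and -0.048 and -0.10 after quantile normalisation. ARNT differed by 0.61 against siCTR and 0.41 against NO. Its 5 measured probe sets ran from 0.10 to 0.75 against siCTR and from -0.25 to 0.47 against NO. At the level of mRNA, then, the EPAS1 signal was higher in siPIR and the arrays of HIF1A could not be separated. HIF activity is set largely at the level of protein, which was not measured here.

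Set side by side, the glycolysis genes had smaller median differences than the other hypoxia targets. The median over the 21 measured glycolysis genes was 0.22 against siCTR and 0.34 against NO, with 0.13 against siCTR after quantile normalisation and 0.20 against NO with the mean over probe sets. Over the 9 other hypoxia targets it was 0.44 and 0.67. The second group was also wider, from -2.20 to 0.74 against siCTR, where the glycolysis genes ran from -0.69 to 1.43. The order depended on the probe sets: with the mean over all probe sets of a gene, the hypoxia targets' medians were -0.066 and -0.035, and the 6 of them that kept a probe set outside the _x_at and _s_at types had -0.011 and 0.20. The difference between the groups was not tested.

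Some isoforms of the same step lay far apart and others close together. Of 13 isoform pairs with both genes measured, 4 had opposite signs against siCTR and 4 against NO, and 3 had them against both: HK1 and HK2, PFKFB2 and PFKFB4, and BNIP3 and BNIP3L. The PFKFB2 pair rests on the brightest probe set, since with the mean over probe sets PFKFB2 was at 0.59 against siCTR, and the HK pair likewise, as HK2 was then at 0.02 against siCTR and -0.08 against NO. ENO2 exceeded ENO1 by 1.38 against siCTR and 1.79 against NO, and HK2 exceeded HK1 by 1.19 and 0.62. EPAS1 exceeded HIF1A by 0.72 and 1.05. LDHA and LDHB were within 0.05 of each other against both controls. These are gaps between log2 differences, not between levels, since signals of different probe sets are not on 1 scale.

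**Figure D3:**
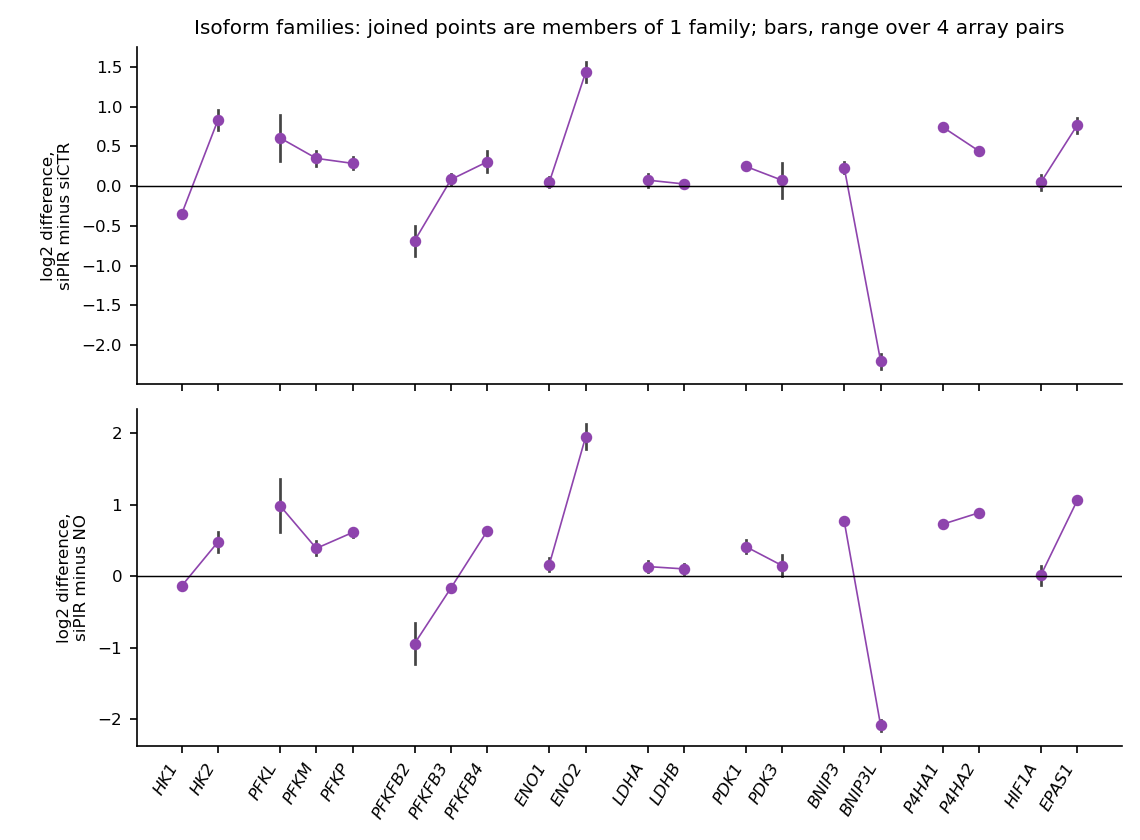
Log2 difference of pool means, siPIR minus siCTR (upper panel) and siPIR minus NO (lower panel), for isoform families with more than 1 measured gene; joined points are genes of a family and bars span the 4 array pairs. The enolases, the hexokinases and the pair BNIP3 and BNIP3L are widely spread, whereas LDHA and LDHB lie together near 0.

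Several genes had probe sets that disagreed. The 35 genes had 89 probe sets, of which 77 were measured, and 21 genes had more than 1 measured probe set. The signs of these were opposite for 9 genes against siCTR (HK2, TPI1, PFKFB2, PKM, LDHB, PDK3, EGLN1, P4HA2 and CA12). They were opposite for 8 against NO (HK2, PGK1, ENO1, PDK3, EGLN1, P4HA2, CA12 and ARNT), and for 5 against both. The dissenting probe sets were dimmer than the one that represents the gene, which is the brightest by construction. For HK2, the others differed by -0.41 and -0.37 against siCTR and by -0.27 and -0.43 against NO, at signals of 196 to 418, and the mean over the 3 probe sets was 0.02 against siCTR and -0.08 against NO. For P4HA2, the second measured probe set differed by -0.72 and -0.67. For PKM it differed by -0.03 against siCTR and 0.30 against NO.

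For CA12, 5 of the 6 measured probe sets lay between -0.95 and -0.68 against siCTR, and the sixth, the dimmest, was at 0.87. Against NO they ran from -0.68 to 0.11. For EGLN1, the 4 measured probe sets ran from -0.36 to 0.36 against siCTR. P4HA1 turned to -0.73 against siCTR and -0.10 against NO with the mean over probe sets, through a second probe set that was not measured, with signals of 4.5 and 0.7 in siPIR, 35.1 and 26.5 in siCTR and 3.3 and 19.5 in NO. BNIP3L passed the call with 1 of its 2 probe sets, and with their mean, at -1.28 against siCTR and -1.26 against NO.

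**Figure D4:**
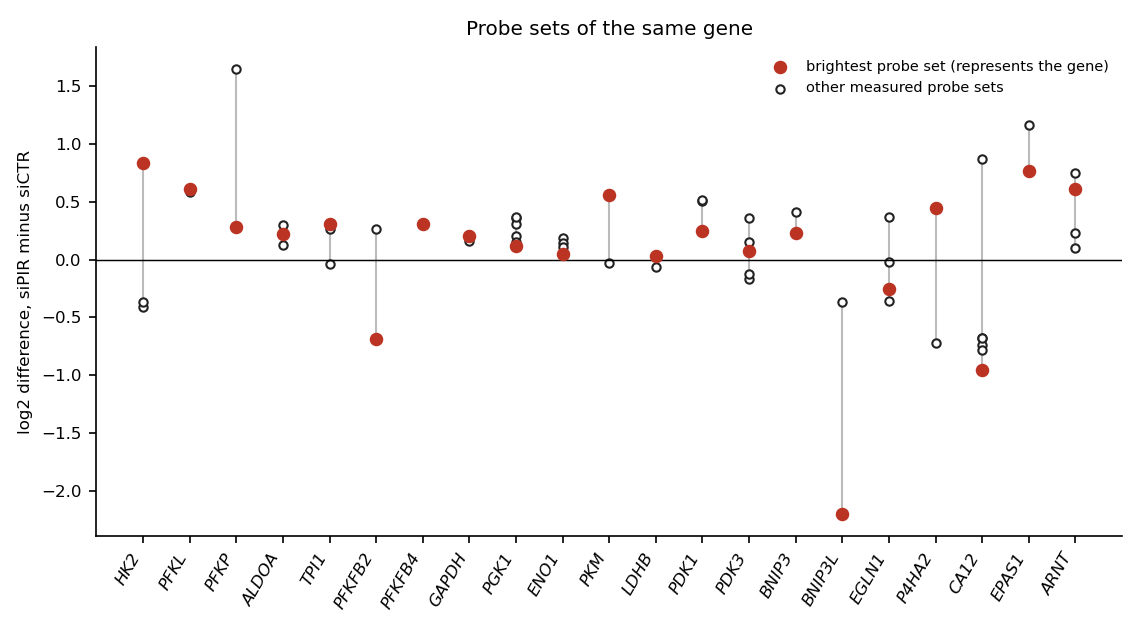
Log2 difference of pool means, siPIR minus siCTR, of every measured probe set for the 21 genes with more than 1; filled red points are the brightest probe set, which represents the gene, and open points the others. The points of HK2, CA12, P4HA2 and BNIP3L are spread widely, and those of HK2, CA12 and P4HA2 lie on both sides of 0.

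The control pools were also compared with each other, as non-targeting duplexes against the reagent alone. No listed gene was called between siCTR and NO (1.04% higher and 2.47% lower of all measured genes). All siCTR arrays were above the NO arrays for 20 of the 33 genes and below for 3, beside 28.1% and 24.9% of all measured genes. Of the 8272 bright genes, 2953 were above and 1973 below. The median was 0.08 for the glycolysis genes and 0.14 for the other hypoxia targets, against 0.01 over all measured genes and 0.035 over bright ones. The values with the greatest size were those of CA12 (0.57), BNIP3 (0.54) and ENO2 (0.52). For 15 of the 33 genes all siPIR arrays were above all siCTR arrays and these above all NO arrays. That order held for 10.6% of all measured genes and 14.9% of the bright ones. The 15 were PFKL, PFKM, PFKP, GPI, ALDOA, PFKFB4, GAPDH, ENO2, PKM and PDK1 of glycolysis, BNIP3, NDRG1, P4HA2 and DDIT4 of the other targets, and EPAS1. Both steps share the siCTR pool, so they are not independent.

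A fit across all measured genes called none of them. With limma on the means of the 3 pools, which sets siPIR against the other 2 and leaves 1 residual degree of freedom, 0 of 13071 genes had a Benjamini-Hochberg adjusted p of 0.05 or less, PIR included. The smallest adjusted p was 0.141, and 2739 genes (21.0%) had an unadjusted p under 0.05, among them 10 of the 33 listed genes. The adjusted p of limma was 0.141 for BNIP3L and 0.162 for ENO2. When limma was run on the 8272 bright genes alone, 2104 (25.4%) passed, and 13 of the 32 listed genes did. Of these, 11 were higher (HK2, PFKL, ENO2, PKM, NDRG1, P4HA1, P4HA2, ANKRD37, DDIT4, EPAS1 and ARNT) and 2 lower (BNIP3L and CA12), with an adjusted p from limma of 0.000234 for ENO2 and 1.78e-05 for BNIP3L. The p-values rest on 1 pool per group and treat the pair of control pools as the measure of spread. ARNT counted as bright only because its siPIR mean, 502, was over the 458.4 cut. Its control means were under that cut, at 331 for siCTR and 375 for NO. The filter thus let ARNT in through the pool where it was highest, which favours listing it as higher.

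The rest of the pathway was read from lists of further genes. Of 32 other genes of glycolysis and pyruvate use, 23 were measured, with a median of 0.00 against siCTR and 0.09 against NO. None of them was called against both controls, and 9 had all siPIR arrays above and 6 below all control arrays, not far from the 28.4% and 23.2% of all measured genes. No gene of this list was higher than both controls by 1.5-fold and 3 were lower, beside 6.37% and 7.55% of all measured genes. The 3 that were lower by that size were PDHB (-0.96 and -0.84), a subunit of pyruvate dehydrogenase, MPC1 (-0.66 and -0.86), of the mitochondrial pyruvate carrier, and BPGM (-0.83 and -0.93), which makes a side product of glycolysis. In single comparisons, 1 of the 23 genes was called higher and 2 lower than siCTR, beside 3.75% and 4.26% of all measured genes. Against NO the counts were 0 and 1, beside 3.67% and 5.48%. LDHC was called lower than siCTR (-1.19) and GAPDHS lower than NO (-1.05). PFKFB1 was called lower than siCTR (-2.06) and SLC16A7 higher (1.44), but against NO they differed by 0.19 and 0.09. In these genes the siCTR pool was itself called against NO, at 2.25 for PFKFB1 and -1.35 for SLC16A7. The mean signal of PFKFB1 was 27.45 in siPIR, 96.3 in siCTR and 15.75 in NO. Only its siCTR mean was above the 70.2 cut for measured genes. The filter thus let PFKFB1 in through the pool where it was highest, which favours calling it lower than siCTR. LDHC had a mean of 58.75 in siPIR, under that cut, against 124.15 in siCTR and 89.05 in NO.

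Of 31 further hypoxia response genes, 28 were measured, and 22 had all siPIR arrays above and 1 below all control arrays, beside 28.4% and 23.2% of all measured genes and 34.0% and 29.1% of bright ones. Their median was 0.44 against siCTR and 0.47 against NO. ANGPTL4, a secreted regulator of lipoprotein lipase, was called against both controls, with signals of 1848 and 1373 in siPIR, against 321 and 343 in siCTR and 254 and 195 in NO. It differed by 2.24 and 2.81. VEGFA, the angiogenic growth factor, was called against NO alone (1.19). Of the other oxygen sensors, HIF1AN, a hydroxylase that limits HIF activity, differed by -0.97 against siCTR and -0.99 against NO, without overlap and just under the 2-fold mark.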

How the data were processed

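The deposited values were probe set intensity on a linear scale, 1 column per array. GCOS, the Affymetrix software, produced them, per the submitters' processing notes; its settings are not given in the sources consulted. The mean without the lowest and highest 2% of values was 500 on all arrays. All 6 columns were matched to their samples. Of 54675 probe sets, 41097 were annotated with 1 gene symbol, 1801 with several, and 11777 were not listed; 6 control probe sets with a symbol were kept from representing a gene, which left 19775 genes. Values were taken as log2(signal + 5.4), the 10th percentile of all values, and averaged over the arrays of a pool. Differences on this scale understate the change of dim genes. The fit used limma 3.58.1 in R 4.3.3. The scripts were tested on simulated data.

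Signals on every array are given for listed genes called in any comparison, past 1.5-fold in 1 direction against both controls, or in an isoform pair of opposite sign, and for PIR. Signals of ENO1, PKM, CA12 and HIF1A, of unmeasured genes and of some further probe sets were added after their values were seen. So were those of ANGPTL4 and the pool means of ARNT, LDHC and PFKFB1. The members and lists were chosen with earlier results of these data known. Alternatives were another pseudocount, filter, scaling, probe set rule or fold mark, and each array left out.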

Additional observations from a re-analysis of the deposited data

How the results depend on the processing

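The single calls against both controls, ENO2 higher and BNIP3L lower, were made under all 14 alternatives, and the 1.5-fold mark gave 5 higher and 2 lower in all. With that mark 7 genes were higher and 3 lower than siCTR, and 12 higher and 2 lower than NO. With 1 array left out, 1 to 2 genes were lower than siCTR, 2 to 3 higher than NO and 1 to 2 lower than NO. Between siCTR and NO, EGLN3 was called higher with no filter and PFKFB2 lower with the mean over probe sets. limma called 13 genes among the bright genes alone. The glycolysis median against siCTR was 0.13 after quantile normalisation and 0.27 without _x_at and _s_at probe sets, and against NO it was 0.23, 0.20 with the mean over probe sets and 0.45 without those types. The hypoxia targets' median against siCTR was 0.34 with no filter, -0.066 with the mean over probe sets and -0.011 without those types. Against NO it was -0.035 and 0.20 in those cases, and between siCTR and NO 0.28 without those types. With 1 array left out, the glycolysis median was 0.19 to 0.25 against siCTR, 0.28 to 0.38 against NO and 0.067 to 0.13 between siCTR and NO, and the hypoxia targets' median 0.38 to 0.46, 0.63 to 0.74 and 0.11 to 0.20. Leaving out types of probe set kept 21 of the 33 genes; otherwise the cause was not tested. No called value changed sign, and 31 of 36 differences of the 12 named genes kept theirs, single other probe sets not counted. No paired analysis was possible because the arrays of a pool are repeat hybridisations of 1 target, averaged before the fit.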
